A study of Macaca fascicularis with 11 samples.

Results

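CDX1, CDX2 and CDX4 are the caudal-type homeobox genes, 3 of the 19367 genes in the deposited matrix of unique molecular identifier (UMI) counts from cultured cynomolgus embryos. Their rows were found by symbol through the paper's supplementary tables, as ENSMFAG00000028943 (CDX1), ENSMFAG00000042692 (CDX2) and ENSMFAG00000041415 (CDX4), and all 3 passed into the tests wherever their counts allowed. They are described here across lineages, days and genotypes in all 11 libraries, which hold 33330 cells.

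CDX proteins are transcription factors that pattern the posterior body axis. They are switched on at the primitive streak downstream of WNT, FGF and retinoid signals, and they act on the HOX genes, which give cells their position along the axis. CDX2 has further known roles in the trophectoderm, the outer layer of the blastocyst, and in the lining of the gut.

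The embryos were fertilised in vitro, cultured and collected at Day 10, Day 12 or Day 14. The 6 wild-type libraries came from 12 embryos, with 2 libraries a day. These pooled 2 and 3 embryos (Day 10), 1 and 2 embryos (Day 12), and 2 and 2 embryos (Day 14). The 5 libraries of ISL1 mutant embryos came from 11 embryos, with 1 library of 3 embryos at Day 10, and libraries of 3 and 1 embryos at both Day 12 and Day 14. ISL1 encodes a LIM homeobox transcription factor. The mutants were made by injecting Cas9 and a pair of guide RNAs into zygotes, so every mutant embryo was a mosaic of cells with deletions of different sizes, and the labels call the mutant hypomorphic. Embryos of both genotypes were grown in the same kind of culture without a uterus, and a library of pooled embryos gives 1 value for all of them.

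The libraries ranged from 36654977 to 164808415 UMIs in all. Median UMIs per cell ranged from 24720 to 142180 with wild-type embryos and from 10916 to 99406 with mutant embryos. Of the 33205 barcodes, 123 were seen in 2 libraries and 1 in 3 libraries. CDX1 was counted 24246 times in all, CDX2 18711 times and CDX4 2831 times. The authors' subtraction of free RNA took away 0.304%, 0.229% and 0.211% of the UMIs of these genes. Levels are given as CPM, in which the UMIs of a gene are scaled by all UMIs of the same cells. The cell types are rebuilt from markers that do not include the CDX genes, and are therefore written with the ending -like.

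ISL1 itself checked none of the labels, since UMIs at the 3′ end of a transcript do not read the edited site. In Epi-derived cells, that is the epiblast and the cells formed from it, ISL1 stood at 7.86 and 48.1 CPM in the wild-type Day 14 libraries and at 63.4 and 70.3 CPM in the mutant ones. The difference of 1.41 on the log2 scale (SE 0.69) did not pass the threshold (edgeR quasi-likelihood test, adjusted p = 0.232).

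At Day 14 in wild-type embryos the CDX genes were high in transition-like, mesoderm-like and amnion-like cells, low in Epi-like cells and near the detection limit in trophoblast-like cells. Epi-like cells are the cells that keep the epiblast's pluripotency genes. Transition-like cells are named after cells that the paper takes to be most likely epiblast on its way to mesoderm. The amnion is the thin epithelium that encloses the cavity over the epiblast. The first and the second library of each type are given in that order throughout. The first held 191 Epi-like, 97 transition-like, 216 mesoderm-like and 54 amnion-like cells, and the second 24, 37, 34 and 18.

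CDX1, which is known for its part in patterning the vertebrae, stood at 2.73 and 30.8 CPM in Epi-like cells, and at 184 and 365 CPM in mesoderm-like cells. Transition-like cells held it at 111 and 276 CPM and amnion-like cells at 101 and 260 CPM. Every one of these 6 sums lay above both Epi-like sums, and the ranges of the 3 types overlapped each other.

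CDX2 stood at 2.32 and 66.4 CPM in Epi-like cells and at 168 and 462 CPM in mesoderm-like cells. The values were 88.8 and 433 CPM in transition-like cells and 76.4 and 459 CPM in amnion-like cells. The second library was above the first in all 4 types, and its 24 Epi-like cells came close to the lowest values of the other types.

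CDX4, which is known from blood formation and the posterior axis, stood at 3.03 and 8.10 CPM in Epi-like cells and at 79.1 and 139 CPM in mesoderm-like cells. In transition-like cells it was at 57.2 and 83.6 CPM, and in amnion-like cells at 56.8 and 89.5 CPM. Both Epi-like sums lay well under all the others.

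**Figure D1:**
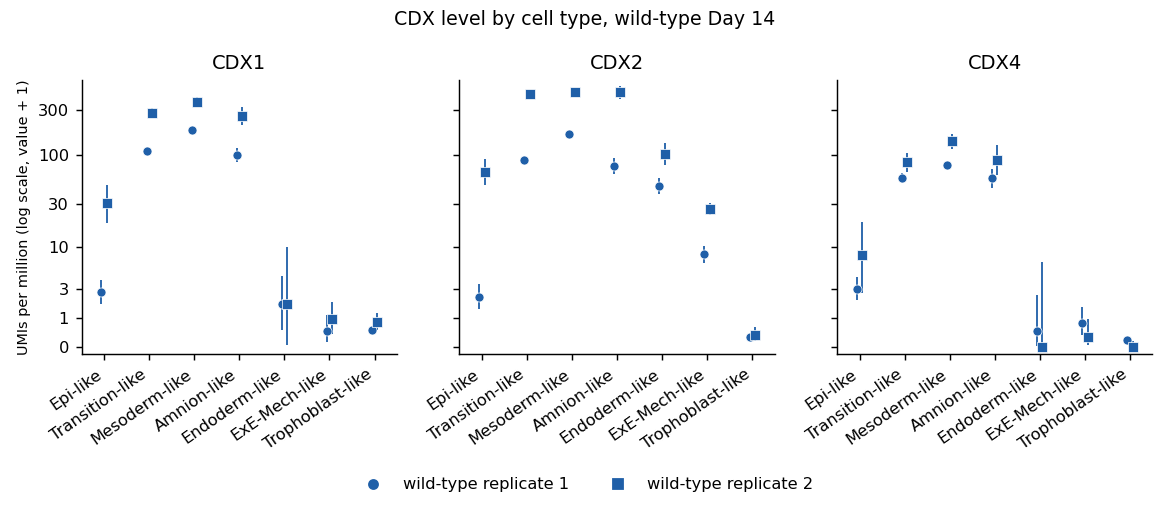
CPM (log axis of the value + 1) of CDX1, CDX2 and CDX4 in each cell type of the wild-type Day 14 embryos, with 1 point per library and a line for the exact 95% Poisson interval of its UMIs, which covers counting error only. Mesoderm-like, transition-like and amnion-like sums stand above Epi-like sums for each gene, endoderm-like cells carry CDX2 at 47.0 and 103 CPM, and trophoblast-like cells stay under 1 CPM for all 3 genes.

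In mesoderm-like cells all 3 genes were called higher than in Epi-like cells at a false discovery rate of 0.01, as were 0.937% of the genes tested (1.21% were called in either direction). The log2 difference was 4.85 for CDX1 (SE 0.49, adjusted p = 0.000527, edgeR), 4.56 for CDX4 (SE 0.58, adjusted p = 0.0015, edgeR) and 4.16 for CDX2 (SE 0.70, adjusted p = 0.00679, edgeR). The sums of all 3 genes did not overlap between the types, which 25.8% of the genes tested showed in this direction. They did not overlap in transition-like and amnion-like cells either, as for 17.4% and 23.7% of the genes. Without the term for the library the differences were 4.53, 3.47 and 4.61 for CDX1, CDX2 and CDX4, and none of the 3 was called. With each cell named by its own markers in place of its cluster, they were 0.93, 1.13 and 1.10, again without a call.

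In amnion-like cells CDX1 was called higher than in Epi-like cells by 4.19 on the log2 scale (adjusted p = 0.00058, edgeR) and CDX4 by 4.02 (adjusted p = 0.00244, edgeR), against 1.78% of the genes tested. CDX2 differed by 3.61 (95% interval 2.08 to 5.14) and just missed the threshold, with an adjusted p of 0.0103 from edgeR. In transition-like cells, where only 0.0434% of the genes tested were called higher, CDX1 rose by 4.34 (adjusted p = 0.00617, edgeR). CDX4 differed there by 4.03 (adjusted p = 0.0156, edgeR) and CDX2 by 3.70 (adjusted p = 0.069, edgeR). Between transition-like, mesoderm-like and amnion-like cells the ranges of the libraries overlapped for every gene.

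Outside the Epi-derived cells the 3 genes parted. Endoderm-like cells held CDX1 at 1.76 and 1.81 CPM and CDX4 at 0.439 and 0 CPM, but CDX2 at 47.0 and 103 CPM. The endoderm-like CDX2 sums overlapped those of Epi-like cells and differed from them by 2.18 on the log2 scale (95% interval 0.63 to 3.73, adjusted p = 0.0346, edgeR). Of the genes tested 18.2% were called in this comparison, and no CDX gene was.

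ExE-Mech-like cells, the extraembryonic mesenchyme, held CDX2 at 8.20 and 26.6 CPM, within the Epi-like range. CDX1 was at 0.443 and 0.920 CPM there and CDX4 at 0.776 and 0.263 CPM. CDX1 fell by 3.80 on the log2 scale against Epi-like cells (adjusted p = 0.00123, edgeR), where 9.43% of the genes were called lower. CDX4 differed by -2.95 (adjusted p = 0.0127, edgeR).

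Trophoblast-like cells had low levels of all 3 genes, with CDX1 at 0.474 and 0.817 CPM, CDX2 at 0.245 and 0.311 CPM, and CDX4 at 0.182 and 0 CPM. All 3 genes were called lower than in Epi-like cells, as 15.1% of the genes tested were. The order of the types from high to low was thus the same group of 3 at the top for each gene, followed by endoderm-like cells for CDX2 but not for CDX1 and CDX4.

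Mesoderm-like cells fell into a meso-1-like and a meso-2-like group, named by 2 marker lists, the second of which holds MESP1 and MIXL1. Meso-1-like cells held CDX1 at 321 and 414 CPM, CDX2 at 269 and 473 CPM, and CDX4 at 135 and 157 CPM. Meso-2-like cells held CDX1 at 129 and 106 CPM, CDX2 at 128 and 401 CPM, and CDX4 at 56.4 and 45.5 CPM, where the second library had only 5 such cells. The groups did not overlap for CDX1 and CDX4, as for 18.4% of the genes with 10 UMIs or more in this direction, and overlapped for CDX2. Within each library CDX2 was higher in meso-1-like cells too, which was not tested.

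CDX RNA was spread over most mesoderm-like cells and did not sit in a few of them. At least 1 UMI of CDX1 was found in 88.0% and 94.1% of these cells, of CDX2 in 81.9% and 94.1%, and of CDX4 in 71.3% and 76.5%. When every cell was thinned to 5000 UMIs, the shares were 46.0% and 73.5% for CDX1, 46.5% and 79.4% for CDX2, and 23.7% and 47.1% for CDX4. Trophoblast-like cells of the same libraries, taken as a reference in which the genes were low, had CDX1 in 1.96% and 1.81% of the cells, and in 0.127% and 0.231% after thinning. Their median depth was 48703.5 and 27550 UMIs against 41880.5 and 23052.5 in mesoderm-like cells.

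The same cells often held all 3 genes. In mesoderm-like cells CDX1, CDX2 and CDX4 were all detected in 132 of 216 and in 25 of 34 cells, and none of them in 10 and 1 cells. In transition-like cells all 3 were detected in 54 of 97 and in 25 of 37 cells, and in amnion-like cells in 15 of 54 and in 11 of 18. After thinning the counts in mesoderm-like cells were 23 of 215 and 11 of 34, so the joint detection rests on the depth of the cells. The tenth of the mesoderm-like cells with the most UMIs of a gene held 34.1% and 33.9% of the CDX1 UMIs and 33.2% and 27.6% of the CDX2 UMIs.

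Some genes of the signals around CDX were called higher in mesoderm-like cells as well, against 0.937% of all genes tested. Of 15 HOX genes, 10 were called higher than in Epi-like cells, none lower and the other 5 neither way, with a median log2 difference of 7.35 against -0.01 over all genes tested. As 7 of them had no UMI in the Epi-like sums, the median with such genes at their lower bound was 5.46. Those 7 could not be called lower than in Epi-like cells in this or any other type. HOXA10, a posterior HOX gene, had 249 UMIs in mesoderm-like and 0 in Epi-like cells, and was higher by at least 6.29 on the log2 scale when 3 UMIs over both libraries are taken as the floor. HOXD4 had 224 and 0 UMIs, which gives at least 6.14.

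Of 11 WNT, FGF and retinoid genes, 5 were called higher and none lower in mesoderm-like cells, with a median of 4.37 (4.20 with 1 gene at its bound). The ligands WNT8A and WNT3, both known from the primitive streak, were higher by 6.65 (adjusted p = 0.00507, edgeR) and 6.50 (adjusted p = 0.00413, edgeR) on the log2 scale. Among 6 streak and posterior mesoderm factors 5 were tested and 4 called higher, with a median of 5.93 (5.42 with 1 gene at its bound). TBXT, the brachyury gene, had 136 UMIs against 0, at least 5.42 on the log2 scale, and HES7, an oscillating gene of the segmentation clock, was higher by 6.73 (adjusted p = 0.00238, edgeR).

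Of 7 genes of the BMP pathway 2 were called higher and 5 were not, the ligand BMP4 by 4.83 and its target MSX1 by 5.27 on the log2 scale, with a list median of 1.36. In amnion-like cells, where 1.78% of all genes tested were called higher, 6 HOX genes, 2 WNT, FGF and retinoid genes (WNT6 and WNT3), none of the streak factors and the same BMP4 and MSX1 were called higher than in Epi-like cells. In transition-like cells, where 0.0434% of all genes tested were called higher, WNT5B alone of these lists was called, higher by 2.40 (adjusted p = 0.00617, edgeR). The lists were chosen with earlier results of these data known, and their counts are descriptions.

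Genes of these lists were also called in types where no CDX gene was called higher. In ExE-Mech-like cells, where CDX1 was called lower, 5 of 15 HOX genes were called higher and none lower, with a median of 5.11 (2.68 with 8 genes at their bound), while 19% of all genes tested were called in either direction. HOXA10 had 1566 UMIs against 0 there, at least 8.37 on the log2 scale, and BMP4 was higher by 5.07 (adjusted p = 0.00027, edgeR). Of the other lists 1 WNT, FGF or retinoid gene was called higher and 4 lower, none of the streak factors higher and 1 lower, and 2 BMP genes higher and 1 lower.

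In endoderm-like cells, where 18.2% of all genes tested were called, 2 HOX genes and 2 of 5 streak factors were called higher and none lower, 4 WNT, FGF and retinoid genes higher and 3 lower, and no BMP gene. In trophoblast-like cells, where 30.5% were called, no gene of the lists was called higher, and 1 HOX gene, 5 WNT, FGF and retinoid genes, 2 streak factors and 2 BMP genes were called lower.

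Over the 3 days of the wild-type series, CDX RNA was present in Epi-derived cells from Day 10. CDX1 in all Epi-derived cells stood at 64.2 and 61.8 CPM on Day 10, 7.85 and 120 CPM on Day 12, and 96.6 and 246 CPM on Day 14. The low value at Day 12 came from a library of 1 embryo with 14 Epi-derived cells, all of them Epi-like. CDX2 took the same course, with 69.6 and 64.0, 7.33 and 203, and 85.0 and 362 CPM.

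CDX4 stood at 8.58 and 1.20 CPM at Day 10, at 2.62 and 57.8 CPM at Day 12 and at 44.3 and 84.3 CPM at Day 14. Both Day 14 values lay above both Day 10 values for each of the 3 genes, as for 24.1% of the genes with 10 UMIs or more, while the Day 12 libraries spanned a wider range. In such sums over mixed cells, fewer cells of a type and less RNA per cell cannot be told apart.

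**Figure D2:**
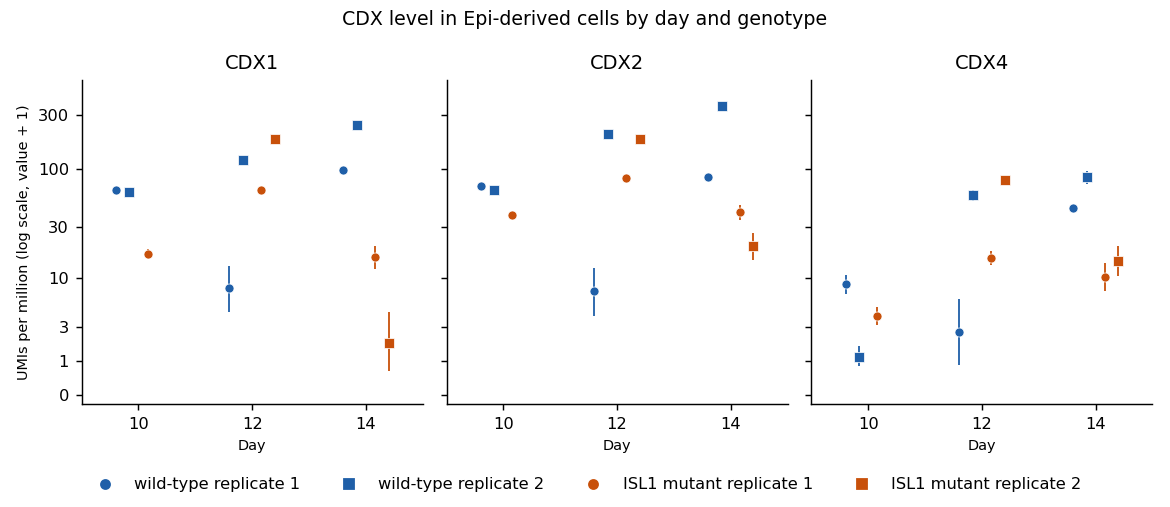
CPM (log axis of the value + 1) of CDX1, CDX2 and CDX4 in all Epi-derived cells by day, with 1 point per wild-type or ISL1 mutant library and its 95% Poisson interval. At Day 12 the libraries of the genotypes overlap, and at Day 14 both mutant libraries lie under both wild-type libraries for each gene.

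Transition-like and mesoderm-like cells already held CDX1 and CDX2 at the earlier days, while no cell of Day 10 and 3 wild-type cells of Day 12 were amnion-like. The paper, with its own cell types, found amnion cells at both Day 10 and Day 12. Transition-like cells had CDX1 at 217 and 160 CPM at Day 10 (20 and 30 cells) and at 212 CPM in the Day 12 library that had such cells, and CDX2 at 187, 156 and 228 CPM. Mesoderm-like cells had CDX2 at 194 and 307 CPM at Day 10 (18 and 11 cells) and at 293 CPM at Day 12. CDX1 in these cells was at 98.6 and 88.2 CPM at Day 10, under both Day 14 sums, as 22.4% of the genes with 10 UMIs or more were. The mesoderm-like cells of Day 10 and Day 12 were all meso-2-like, while those of Day 14 held 67 and 29 meso-1-like cells. In the meso-2-like cells of Day 14 alone, CDX1 was at 129 and 106 CPM (149 and 5 cells). The part of this make-up in the difference between the days was not tested.

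CDX4 in the same cells was lower at Day 10, at 23.0 and 4.50 CPM in transition-like and at 23.3 and 0.700 CPM in mesoderm-like cells, all under the Day 14 values, which were 56.4 and 45.5 CPM in meso-2-like cells alone (as for 21.2% of the genes in transition-like cells). In the only wild-type Day 12 library with such cells it stood at 54.8 CPM in transition-like and 90.4 CPM in mesoderm-like cells. These differences between days were not tested in these types.

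Other Epi-derived cells, many of them with high CDX levels, took no name. Either no marker list scored clearly above the next, or trophoblast markers led their cluster. In wild-type embryos they were 9 and 27 cells at Day 10, with CDX1 at 316 and 225 CPM and CDX2 at 316 and 177 CPM. At Day 12 they were 50 of the 153 Epi-derived cells of the second library, with CDX1 at 228 CPM, CDX2 at 427 CPM and CDX4 at 124 CPM. CDX1 was detected in 49 of these 50 cells, CDX2 in all 50 and CDX4 in 40. The mutant Day 12 libraries held 152 and 77 unnamed cells, with CDX1 at 170 and 247 CPM, CDX2 at 182 and 257 CPM and CDX4 at 32.3 and 103 CPM, and 39 of these cells formed a cluster with high trophoblast markers. At Day 12 ISL1 was detected in 20 of the 50 unnamed wild-type cells, and in 21 of the 152 and 44 of the 77 unnamed mutant cells. The sums over all Epi-derived cells include the unnamed cells.

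In the wild-type libraries Epi-like cells held each gene at 11.8 CPM or less at Day 10 and Day 12, and the second Day 14 library held more CDX1 and CDX2. CDX1 was at 11.8 and 8.01 CPM at Day 10, 7.85 and 11.05 CPM at Day 12, and 2.73 and 30.8 CPM at Day 14. CDX2 went from 6.40 and 2.91 CPM over 7.33 and 11.5 CPM to 2.32 and 66.4 CPM, and CDX4 from 1.85 and 0.182 over 2.62 and 5.74 to 3.03 and 8.10 CPM.

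None of the 3 genes was called between days in Epi-like cells by edgeR, where 0.399% of the genes tested were called at Day 14 against Day 10 and 0 at Day 12 (9.49% had an unadjusted p under 0.05 at Day 12, and DESeq2 called 39 genes). At Day 14 the log2 difference from Day 10 was 0.12 for CDX1 (95% interval -1.92 to 2.16), 2.52 for CDX2 (-0.15 to 5.20) and 2.31 for CDX4 (0.04 to 4.58). Without the second Day 14 library, which had 24 Epi-like cells, the CDX1 and CDX2 differences were -1.77 and -0.89. Leaving out 1 library moved the CDX4 difference between 1.22 and 4.53.

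Next the mutant was compared with the wild type, which asks what lower ISL1 function does to the CDX genes. At Day 14 the Epi-derived cells of both mutant libraries held less CDX RNA than those of either wild-type library. CDX1 stood at 15.6 and 1.91 CPM in the mutant libraries against 96.6 and 246 CPM in the wild-type ones. CDX2 stood at 40.4 and 19.9 CPM against 85.0 and 362 CPM, and CDX4 at 10.2 and 14.5 CPM against 44.3 and 84.3 CPM. The groups did not overlap for any of the 3 genes, which was also the case, in this direction, for 30% of all genes tested.

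The log2 difference was -4.19 for CDX1 (SE 0.74, adjusted p = 0.0205, edgeR), -2.85 for CDX2 (SE 0.64, adjusted p = 0.0383, edgeR) and -2.34 for CDX4 (SE 0.39, adjusted p = 0.0188, edgeR). No CDX gene passed the false discovery rate of 0.01, at which 0.0598% of the genes tested were called lower. All 3 had an unadjusted p under 0.05, as did 27.5% of the genes tested. With the batch number of the labels as a block, CDX1 was called at -4.21 (adjusted p = 0.00311, edgeR) and CDX4 at -2.30 (adjusted p = 0.000756, edgeR) and CDX2 was not (-2.53, adjusted p = 0.0157), in a fit that called 421 genes in place of 74 (0.758% of the genes tested lower and 4.2% in either direction) and had 1 residual degree of freedom. DESeq2 called CDX4 alone of the 3 (-2.32), and edgeR without the filter on low counts called all 3. The calls moved with the wild-type libraries: all 3 genes passed without the first (-4.66, -3.51 and -2.71 for CDX1, CDX2 and CDX4), where 1.74% of the genes tested were called lower and 6.7% in either direction. They also passed without the second (-3.42, -1.52 and -1.88), where 2.73% were called lower and 8.14% in either direction, and none passed without either mutant library (CDX1 was -6.34 without the first). A group left with 1 library was taken to vary like the other group.

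CDX1 was detected in 7.00% of the mutant Epi-derived cells of the first library and 4.30% of the second, and in 53.9% and 75.2% of the wild-type ones. Thinned to 5000 UMIs the shares were 7.35% and 2.20% against 26.1% and 53.1%. For CDX2 the thinned shares were 9.90% and 6.59% against 25.0% and 69.0%, and for CDX4 3.19% and 6.59% against 14.6% and 36.3%. Both mutant shares lay under both wild-type shares at this fixed depth for each gene. The share of all genes that separated in this way after thinning was not counted. Thinning left out 173 of the 486 cells of the first mutant library, which had a median of 6765.5 UMIs, and at most 5 of any other, so its share covers only its deeper cells.

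**Figure D3:**
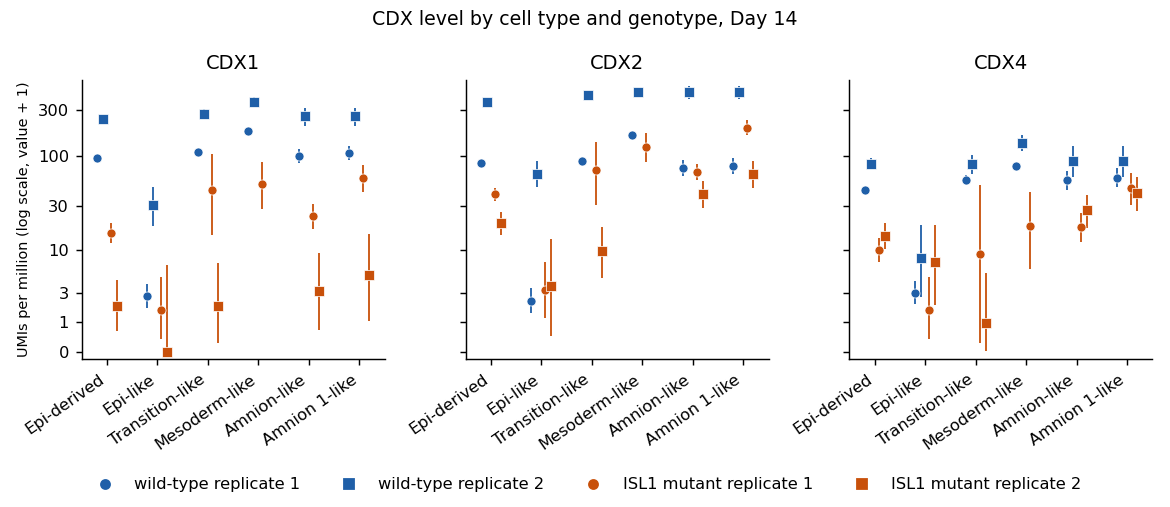
CPM (log axis of the value + 1) of CDX1, CDX2 and CDX4 at Day 14 in all Epi-derived cells and in each of their types, with 1 point per wild-type or ISL1 mutant library and its 95% Poisson interval. Mutant transition-like and amnion-like sums lie under the wild-type ones for all 3 genes, while the CDX2 values of amnion 1-like cells overlap.

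The make-up of the Epi-derived cells differed between the genotypes at the same time. The mutant libraries held 180 and 15 Epi-like, 8 and 22 transition-like, 25 and 4 mesoderm-like and 256 and 52 amnion-like cells. Markers of the amnion 2 list (10 of 10 with UMIs in every library) summed to 3180 and 3092 CPM in mutant and 792 and 583 CPM in wild-type Epi-derived cells. Markers of meso-2 (7 of 7) summed to 365 and 364 CPM against 2258 and 796 CPM. ExE-Mech markers (10 of 10) summed to 1051 and 616 CPM in mutant against 106 and 184 CPM in wild-type cells, and the correction for free RNA had removed 8.77% and 3.22% of the UMIs of the mutant libraries and 2.98% and 0.457% of the wild-type ones. The part of these shifts in the CDX difference was not tested.

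Within the types the genotypes were compared on few cells, and in Epi-like cells they overlapped for CDX2 and CDX4. In transition-like cells CDX1 was at 45.1 and 1.95 CPM in the mutant against 111 and 276 CPM, CDX2 at 72.2 and 9.74 CPM against 88.8 and 433 CPM, and CDX4 at 9.02 and 0.974 CPM against 57.2 and 83.6 CPM. The sums of all 3 genes did not overlap, as for 25.5% of the genes tested in this direction, and differed by -4.31, -3.34 and -4.96 on the log2 scale. Of the 22 such cells of the second mutant library 19 formed a cluster of their own. It was led by the stress genes HMOX1, DDIT3, DDIT4 and MT1X, and held CDX1 at 2.11 CPM, CDX2 at 10.5 CPM and no CDX4. HMOX1 is also on the marker list that names transition-like cells, and its part in the name of this cluster was not tested.

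No gene at all was called by edgeR in transition-like cells (10.9% of the genes had an unadjusted p under 0.05, and DESeq2 called 9 genes), and the adjusted p was 0.259 for CDX1, 0.322 for CDX2 and 0.152 for CDX4. With the batch as a block all 3 were called among 49 genes (0.772% of those tested), at -4.28, -3.16 and -5.05. Without the first wild-type library all 3 were called as well (-4.66, -3.97 and -5.11, with 1.07% of the genes called), and without the second CDX1 and CDX4 (-3.42 and -4.68, with 0.781%) but not CDX2 (-1.73). None was called without either mutant library, where CDX1 was -6.33 without the first and -2.20 without the second.

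In mesoderm-like cells only the first mutant library had 5 cells or more, with CDX1 at 51.7 CPM, CDX2 at 125 CPM and CDX4 at 18.5 CPM from 25 cells. All 3 values lay under both wild-type libraries, as for 36.5% of the genes with 10 UMIs or more. Of these 25 cells 18 were meso-1-like and 7 meso-2-like, against 67 and 149 in the first wild-type library and 29 and 5 in the second. With a single mutant library, the spread behind the test came from the wild-type libraries alone. The log2 differences of -2.47 (95% interval -3.96 to -0.97), -1.38 (-3.10 to 0.34) and -2.62 (-4.23 to -0.999) were not called, and neither was any other gene (5.54% had an unadjusted p under 0.05, and DESeq2 called 6 genes).

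In amnion-like cells CDX1 stood at 23.6 and 3.14 CPM in the mutant against 101 and 260 CPM in the wild type, CDX2 at 69.2 and 40.8 CPM against 76.4 and 459 CPM, and CDX4 at 18.0 and 27.2 CPM against 56.8 and 89.5 CPM. These groups did not overlap either, as for 31.6% of the genes tested. The log2 differences of -3.44 (adjusted p = 0.0449), -2.08 (adjusted p = 0.139) and -1.54 (adjusted p = 0.0769) from edgeR were not called, while 0.264% of the genes were. With the batch as a block all 3 were called (-3.41, -1.63 and -1.56 for CDX1, CDX2 and CDX4), among 513 genes (6.77% of those tested) in place of 20. Leaving out 1 library moved CDX1 between -5.57 and -2.69, CDX2 between -2.90 and -0.38 and CDX4 between -1.92 and -1.20. CDX1 was called without the first wild-type library (-3.98), where 1.57% of the genes were called, and without the first or the second mutant library (-5.57 and -2.84), where 0.626% and 1.64% were. CDX2 was called without the first wild-type library alone (-2.90), and CDX4 in none of these fits.

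The amnion-like cells were themselves of unlike kinds in the genotypes. Amnion 2-like cells, which made up 176 and 26 of the mutant amnion-like cells and 3 of the wild-type ones, held CDX1 at 4.31 and 0 CPM, CDX2 at 0 and 2.66 CPM and CDX4 at 2.59 and 5.32 CPM in the mutant. In amnion 1-like cells alone (80 and 26 mutant, 51 and 18 wild-type cells) CDX1 stood at 59.7 and 5.18 CPM against 109 and 260 CPM and did not overlap, as 19.2% of the genes with 10 UMIs or more did not in this direction. CDX2 stood at 199 and 65.7 CPM against 80.2 and 459 CPM, so that its values overlapped. CDX4 stood at 46.8 and 41.5 CPM against 60.1 and 89.5 CPM. Tested in amnion 1-like cells alone, an alternative chosen after the data had been seen, CDX1, CDX2 and CDX4 differed by -2.47, -0.995 and -0.69 on the log2 scale, and none was called.

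One amnion 1-like cluster had 5 cells or more of all 4 libraries. It held 25 and 19 mutant and 31 and 16 wild-type cells, with CDX1 at 88.9 and 4.34 CPM against 199 and 292 CPM. CDX2 was at 356 and 80.4 CPM against 137 and 495 CPM, and CDX4 at 51.5 and 36.9 CPM against 82.5 and 88.5 CPM. Both mutant libraries lay under both wild-type ones for CDX1 and CDX4 within this cluster, as for 16.3% of the genes with 10 UMIs or more, and not for CDX2. A second amnion 1-like cluster, in which the second wild-type library had fewer than 5 cells, had another order. It held CDX1 at 96.03 and 8.45 CPM in 22 and 7 mutant cells against 3.36 CPM in 20 cells of the first wild-type library, and CDX2 at 176 and 8.45 CPM against 13.5 CPM. CDX4 was at 85.4 and 59.2 CPM there against 33.6 CPM.

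Epi-like cells of the mutant held CDX1 at 1.66 and 0 CPM, CDX2 at 3.32 and 3.69 CPM and CDX4 at 1.66 and 7.37 CPM, and the genes fell to the filter on low counts there. In the 15 such cells of the second mutant library, 0 UMIs of CDX1 allow a level of up to 5.53 CPM. In trophoblast-like cells, where the genes were near their limit, CDX1 differed by 1.26 (95% interval -0.85 to 3.38) and CDX2 by -1.02 (-2.75 to 0.71) on the log2 scale between the genotypes. The CDX1 difference was -0.19 without the second mutant library. No gene was called there by edgeR, 12.1% had an unadjusted p under 0.05, and DESeq2 called 233 genes.

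Of the genes around CDX, WNT5B was called lower in mutant Epi-derived cells at Day 14, where it fell by 2.61 on the log2 scale (adjusted p = 0.00491, edgeR), and the streak factor EVX1 fell by 2.55 (adjusted p = 0.00731, edgeR). These were 1 of 10 tested WNT, FGF and retinoid genes and 1 of 4 streak factors, against 0.0598% of all genes tested that were called lower and 0.738% in either direction. None of the 13 HOX genes and of the 7 BMP genes tested was called in either direction. The list medians were -1.36 for the HOX genes, -1.58 for the WNT, FGF and retinoid genes, -2.71 for the streak factors and -0.77 for the BMP genes, against -0.00 over all genes tested. With the batch as a block, where 0.758% of all genes tested were called lower and 4.2% in either direction, 1 HOX gene, 3 WNT, FGF and retinoid genes, 2 streak factors and 1 BMP gene were called lower and 1 WNT, FGF or retinoid gene higher.

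At Day 12 the genotypes did not separate. CDX1 in Epi-derived cells stood at 64.5 and 185 CPM in the mutant libraries and at 7.85 and 120 CPM in the wild-type ones, CDX2 at 82.5 and 185 CPM against 7.33 and 203 CPM, and CDX4 at 15.4 and 78.8 CPM against 2.62 and 57.8 CPM. The groups overlapped for each gene. The log2 differences were 0.94 for CDX1 (95% interval -1.38 to 3.26), 0.35 for CDX2 (-2.22 to 2.92) and 0.57 for CDX4 (-2.03 to 3.18), with 0.00939% of the genes called. The values rested on single libraries. Without the first wild-type library the 3 differences were 0.083, -0.56 and -0.29, without the second wild-type library 3.81, 4.02 and 3.96, and without the second mutant library 0.063, -0.28 and -0.94, and none was called.

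Mutant transition-like cells at Day 12 held CDX1 at 85.4 and 270 CPM (83 and 93 cells), CDX2 at 178 and 240 CPM and CDX4 at 36.5 and 111 CPM. The only wild-type library with such cells stood at 212, 228 and 54.8 CPM, between the mutant ones. At Day 10 the single mutant library held 16.8 CPM of CDX1, 38.0 CPM of CDX2 and 4.01 CPM of CDX4 in Epi-derived cells. The first 2 of these lay under both wild-type libraries and the third between them, while 30.1% of the genes with 10 UMIs or more lay under both. No test was made.

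The difference between the effects at Day 14 and Day 12 was itself tested. It was -5.12 on the log2 scale for CDX1 (95% interval -8.57 to -1.67, adjusted p = 0.525, edgeR), -3.18 for CDX2 (-6.64 to 0.28, adjusted p = 0.653, edgeR) and -2.88 for CDX4 (-6.08 to 0.32, adjusted p = 0.655, edgeR). No gene was called by edgeR. Of the genes tested 7.81% had an unadjusted p under 0.05 with CDX1 among them, and DESeq2 called 34 genes. On simulated data this fit recovered 46% of genes whose effects differed by 3 on the log2 scale. The simulation gave every gene the same spread between libraries, so this share does not give the recovery of the CDX genes. Leaving out 1 library moved CDX1 between -8.01 and -4.24, CDX2 between -6.88 and -1.86 and CDX4 between -6.32 and -1.36, and no CDX gene was called. The largest differences came without the second wild-type Day 12 library. A difference between the days was therefore not shown.

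Trophoblast-like cells made up most of the cells, and in them CDX1 and CDX2 were high in wild-type embryos at Day 10 and lower later. CDX1 in wild-type trophoblast-like cells stood at 161 and 196 CPM at Day 10, at 3.19 and 16.4 CPM at Day 12 and at 0.474 and 0.817 CPM at Day 14. CDX2 stood at 60.2 and 76.5 CPM, at 0.0472 and 0.787 CPM and at 0.245 and 0.311 CPM. CDX4 never went above 0.339 CPM in any library.

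The Day 10 libraries lay above all later ones for both genes, as 21% of the genes tested did against Day 12 and 23.4% against Day 14. From Day 10 to Day 14 the log2 difference was -8.21 for CDX1 (SE 0.86, adjusted p = 0.0159, edgeR) and -7.98 for CDX2 (SE 0.94, adjusted p = 0.0189, edgeR). From Day 10 to Day 12 it was -4.29 (adjusted p = 0.0538, edgeR) and -7.55 (adjusted p = 0.0365, edgeR). None of these was called by edgeR, in a comparison where 0.0153% of the genes were called at Day 14 and 0 at Day 12 (17.8% had an unadjusted p under 0.05 at Day 12, and DESeq2 called 867 genes). DESeq2 called all 4. Leaving out either Day 12 library gave -8.21 and -7.98 at Day 14. With a library left out, edgeR called each of the genes at Day 14 in part of the fits and not in all. Each of these fits left a day with 1 library.

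**Figure D4:**
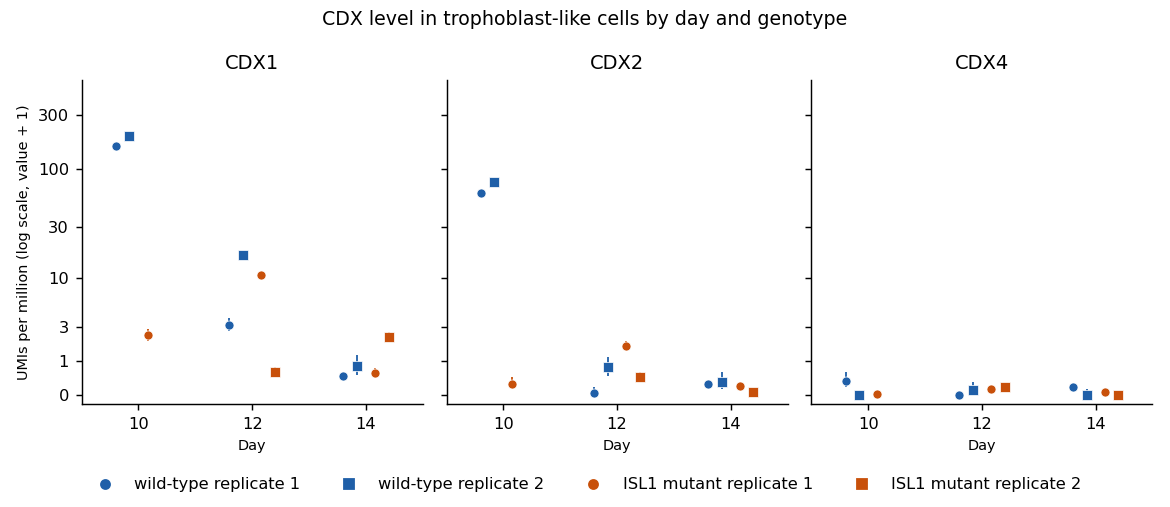
CPM (log axis of the value + 1) of CDX1, CDX2 and CDX4 in trophoblast-like cells by day, with 1 point per wild-type or ISL1 mutant library and its 95% Poisson interval. The wild-type Day 10 libraries stand at 161 and 196 CPM for CDX1 and at 60.2 and 76.5 CPM for CDX2, and the mutant Day 10 library at 2.40 and 0.263 CPM.

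Most of the Day 10 signal sat in cells that could not be assigned to a trophoblast class. They formed 4 clusters with 225 and 266 wild-type cells and 17 mutant cells, in which 8 or 9 of 12 trophoblast markers were detected in 25% of the cells or more but at low levels, and none of the 12 was among the 10 leading genes. These cells held CDX1 at 288 and 263 CPM and CDX2 at 121 and 119 CPM in wild-type embryos, and CDX1 was detected in 98.2% and 99.2% of them (68.4% and 68.0% after thinning). In the 17 mutant cells CDX1 was at 38.8 CPM and CDX2 at 0.982 CPM.

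At full depth nearly all wild-type Day 10 cells with CDX2 also had CDX1. Of the wild-type trophoblast-like cells 180 and 216 had CDX1 and CDX2 without CDX4, and a further 2 and 0 had CDX4 as well. CDX1 alone was found in 148 and 158 cells, and CDX2 alone in 6 and 1. In thinned cells 70 and 72 had both CDX1 and CDX2, and 17 and 29 had CDX2 alone. The tenth of the cells with the most CDX2 UMIs held 56.3% and 47.7% of them, against 41.7% and 35.0% for CDX1.

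CDX1 was lower on the later days in cytotrophoblast-like cells alone as well. Cytotrophoblast cells, the proliferating cells of the placental epithelium, held CDX1 at 28.1 and 68.6 CPM at Day 10, at 3.60 and 18.8 CPM at Day 12 and at 0.418 and 0.945 CPM at Day 14. CDX2 was low in them on every day, at 0.186 and 0.577 CPM, then 0.0533 and 0.909 CPM, then 0.172 and 0.360 CPM. When the comparison of days was repeated on these cells, which was decided after the data had been seen, CDX1 differed by -6.23 at Day 14 (adjusted p = 0.058, edgeR). CDX2 differed by -0.54 at Day 14 (adjusted p = 0.917, edgeR) and by 0.29 at Day 12, in sums that leave out the unassigned Day 10 cells.

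The mutant library of Day 10 did not share the high levels, with CDX1 at 2.40 CPM and CDX2 at 0.263 CPM in 454 trophoblast-like cells. Of these cells 309 were cytotrophoblast-like, with 1.25 CPM of CDX1, and 17 belonged to the unassigned clusters. Both sums lay under both wild-type libraries, as for 34.8% of the genes with 10 UMIs or more, and this difference was not tested. At Day 12 the mutant libraries stood at 10.5 and 0.606 CPM for CDX1, overlapping the wild-type ones, and at Day 14 at 0.562 and 2.30 CPM. At Day 12 the genotypes differed by -0.82 on the log2 scale for CDX1 (95% interval -4.12 to 2.48) and by 1.46 for CDX2 (-1.54 to 4.46). Leaving out the second wild-type library turned the CDX1 difference to 0.64, and leaving out the second mutant library turned it to 0.09.

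No gene was called by edgeR in trophoblast-like cells at Day 12, where 16.2% of the genes had an unadjusted p under 0.05 and DESeq2 called 561. Between the days the mutant effect in these cells differed by 2.08 for CDX1 (95% interval -2.21 to 6.38) by -2.47 for CDX2 (-6.19 to 1.24) and by -3.31 for CDX4 (-8.81 to 2.18), of which few UMIs were seen. Again no gene was called by edgeR, 8.81% had an unadjusted p under 0.05, and DESeq2 called 78 genes.

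A few later clusters held CDX1 above the level of their day. At Day 12 a cytotrophoblast-like cluster of 577 cells, 441 of them from the first mutant library, held CDX1 at 79.0 CPM in that library and at 22.6 and 72.1 CPM in the wild-type libraries (29 and 100 cells). At Day 14 an extravillous-like cluster of 282 cells, 250 of them mutant, held CDX1 at 45.6 CPM in the second mutant library, at 5.45 CPM in the first and at 0 in the 29 cells of the first wild-type library. In that second library 16 of 74 cells had CDX1, so the level rested on a small share of cells.

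Between trophoblast classes of the same libraries, CDX2 was called lower in cytotrophoblast-like than in CGA-high cells, a class named by 4 markers of which CGA, a hormone gene of the syncytiotrophoblast, is one. The log2 difference was -2.15 (SE 0.58, adjusted p = 0.00232, edgeR), in a comparison that called 26% of the genes lower and 58.4% in either direction. The CDX2 level of CGA-high cells was 5.36 and 15.2 CPM in the Day 10 wild-type libraries, 5.91 CPM in the first Day 12 mutant library and at most 1.59 CPM in the other 8. The call was lost when any of these 3 libraries was left out (-1.79, -1.68 and -2.09). The marker CGA did not follow the class throughout. A CGA-high cluster of 69 Day 10 cells held CGA at 1705 CPM, under the 6802 CPM of a cytotrophoblast-like cluster of that day, and 102 CDX2 UMIs (13.8 CPM), while the 41 Day 10 cells with the most CGA (46701 CPM) had no CDX2 UMI. At Day 12 a cytotrophoblast-like cluster of 119 cells held CGA at 55342 CPM and CDX2 at 5.13 CPM, against 58696 and 1.99 CPM in a CGA-high cluster of 302 cells. Without the cluster of 69 cells, an alternative chosen after its values were seen, the log2 difference of CDX2 was -1.85 (adjusted p = 0.00482, edgeR).

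CDX1 differed by 0.48 (95% interval -1.27 to 2.24) between the same classes and was not called. Extravillous-like cells, the invasive cells of the placenta, differed from CGA-high cells by -1.48 for CDX2 (adjusted p = 0.0643, edgeR) and by 0.74 for CDX1 (95% interval -1.49 to 2.96), which became -0.61 without the second Day 14 mutant library. This comparison called 54.2% of the genes in either direction. CDX4 had too few UMIs in these classes to be tested between them.

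CDX2 was found in endoderm-like and ExE-Mech-like cells, where the other CDX genes were mostly near their limit. Endoderm-like cells held CDX2 at between 40.2 and 148 CPM in all 11 libraries. In wild-type libraries it was at 64.7 and 148 CPM at Day 10, 50.7 and 88.9 CPM at Day 12, and 47.0 and 103 CPM at Day 14, and in mutant libraries at 53.5 CPM, 40.2 and 63.8 CPM, and 90.2 and 71.2 CPM. The ranges of the days overlapped in wild-type libraries, and the genotypes overlapped at Day 12 and Day 14. At Day 10 the mutant library lay under both wild-type ones, and both mutant Day 14 values lay above both mutant Day 12 values. The share of all genes that separated in these ways was not counted, and neither difference was tested. CDX1 was seen in these cells in the Day 10 wild-type libraries at 21.3 and 59.0 CPM and at no more than 7.41 CPM elsewhere.

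**Figure D5:**
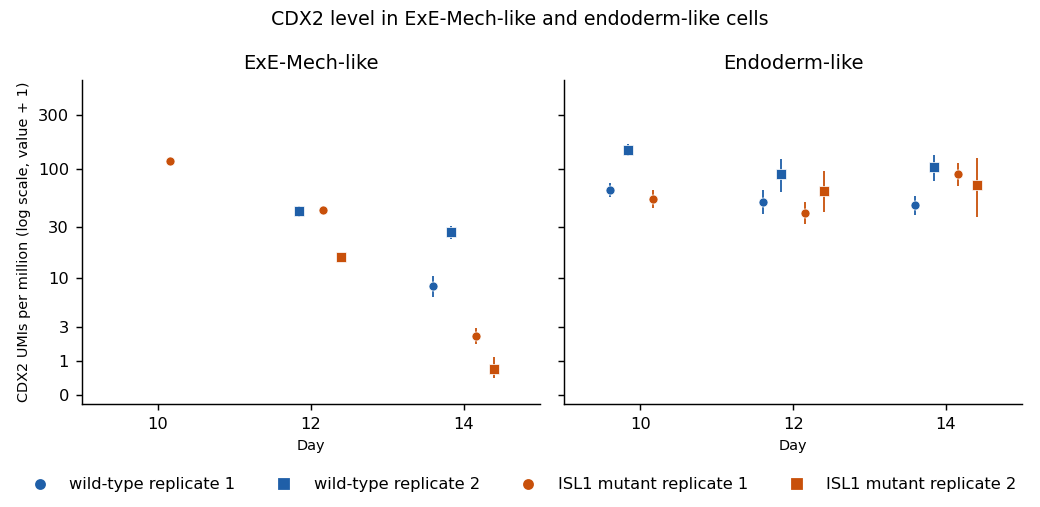
CPM (log axis of the value + 1) of CDX2 in ExE-Mech-like and endoderm-like cells by day, with 1 point per wild-type or ISL1 mutant library and its 95% Poisson interval. Endoderm-like cells stay between 40.2 and 148 CPM in every library, while ExE-Mech-like cells range from 118 CPM in the Day 10 mutant library to 0.719 CPM in the second Day 14 mutant library. No wild-type cell of Day 10 was ExE-Mech-like.

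In ExE-Mech-like cells CDX2 differed more between days. It stood at 118 CPM in the 59 cells of the Day 10 mutant library, where 94.9% of the cells had it (49.2% after thinning). No wild-type cell of Day 10 was ExE-Mech-like, so the Day 10 level is known from this mutant library alone. The paper, with its own cell types, first found this mesenchyme at Day 12. At Day 12 it stood at 41.5 CPM in the wild-type library that had such cells, and at 42.7 and 15.8 CPM in the mutant ones. At Day 14 the wild-type libraries held 8.20 and 26.6 CPM and the mutant ones 2.34 and 0.719 CPM, so that the genotypes did not overlap, as for 22.8% of the genes with 10 UMIs or more in this direction. The genotypes lay partly in different clusters, since 7 of the 11 ExE-Mech-like clusters of Day 14 held 2140 mutant and 31 wild-type cells, with CDX2 at 0.512 and 0.378 CPM in the mutant and 4.53 and 8.68 CPM in the wild-type libraries. In the other 4, which had 5 cells or more of all 4 libraries, CDX2 was at 3.99 and 1.22 CPM in the mutant and 8.39 and 27.7 CPM in the wild-type libraries (1415 and 480 cells). Taken singly, the genotypes overlapped in 2 of these 4 clusters.

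Thinned to the same depth, CDX2 was found in 2.48% and 10.6% of the wild-type and in 0.707% and 0.373% of the mutant ExE-Mech-like cells at Day 14. The trophoblast-like cells of the same libraries had it in 0.169% and 0.116% and in 0.0860% and 0.0382%. The mutant shares were low and only numerically above these, which rested on 5 of 5812 and 1 of 2615 mutant trophoblast-like cells. Neither this nor the difference between the genotypes was tested. CDX1 in ExE-Mech-like cells was at most 6.34 CPM and CDX4 at most 11.6 CPM, both in the Day 10 mutant library.

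The genes whose pattern was most like each CDX gene were sought over 52 sums of a type and a library, by Pearson's r of log2(CPM + 1) among 15099 genes. The sums share libraries and embryos, and r is a description. CDX4 was most like AMER2 (r = 0.90) and FABP7 (r = 0.88), a gene without a symbol, EVX1 and ATP8A1 (both r from 0.82 to 0.83). CDX2 was most like EVX1 (r = 0.81), ERICH2 (r = 0.80), SP5 (r = 0.80), a gene without a symbol and HMX1 (r = 0.78). ERICH2 is also on the marker list that names meso-2-like cells, and the part of this in its r was not tested. CDX1 was most like FABP7 (r = 0.79), AMER2 (r = 0.78), BEND4, MDH1 and ST8SIA6 (each r = 0.76).

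AMER2, a regulator of WNT signalling, and FABP7, a fatty acid binding protein, were thus shared between CDX1 and CDX4, and EVX1 between CDX2 and CDX4. Among themselves the CDX genes had r = 0.68 for CDX1 with CDX2, 0.74 for CDX1 with CDX4 and 0.68 for CDX2 with CDX4. CDX4 was the 10th gene by likeness to CDX1 and CDX2 the 37th. These ranks moved with the pseudocount, as they were 3 and 6 with log2(CPM + 10), and CDX1 went from rank 45 to rank 2 by likeness to CDX2. The trophoblast-like sums of Day 10 held CDX1 and CDX2 but almost no CDX4 (11 UMIs in the first wild-type library, 0 in the second and 1 in the mutant one), and endoderm-like sums held CDX2 with little of the others.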

How the data were processed

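Single-cell RNA libraries of pooled embryos were aligned by the authors with Cell Ranger 3.1.0 to the Ensembl annotation of Macaca_fascicularis_5.0. The authors deposited a matrix of expected counts, that is whole UMIs per gene and cell after subtraction of free RNA with SoupX, and a matrix of uncorrected counts. Both had been filtered on genes and cells by the authors, and 209 cells of the uncorrected matrix that are absent from the corrected one were left out. The corrected matrix was used unless stated otherwise, and its values are whole numbers, so that nothing was rounded.

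The members and all lists were chosen with earlier results of these data known. Cells were clustered per day with Seurat 5.3.0 in R 4.3.3 (reciprocal PCA, 5000 features, 30 dimensions, UMAP by uwot 0.2.3, resolution 0.8, seed 42), without CDX genes, the companion genes and ISL1. A cluster took the name of a marker list when 3 markers or more were seen in 25% of its cells and its score was 1.5 times the next, or 1.2 times within Epi-derived cells. Of Epi and transition the higher score decided, Epi-derived clusters without that margin or led by trophoblast markers stayed unnamed, and a trophoblast class needed a score of 0.3. These limits were set after the clusters had been seen. No doublets were called or removed. A difference from the study's own cell types may come from the rebuilt names.

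UMIs were summed per type and library for libraries with 5 cells or more of a type. The sums were tested with edgeR 4.0.16 (TMM, filterByExpr, two-sided quasi-likelihood F test) at a false discovery rate of 0.01 over all genes. The library was a term where types of the same libraries were compared, and no block was used between genotypes or days. There the labels pair the libraries by a batch number, which served as a block in an alternative. The deviations of same-numbered libraries in Epi-derived and trophoblast-like cells correlated at 0.143 and 0.025 at Day 12 and at 0.054 and 0.071 at Day 14. Alternatives included DESeq2 1.42.0. Replicates are libraries of pooled embryos, so p-values measure the spread between libraries only. Floors take 3 UMIs and, like intervals of shares, cover counting error only. Cells were thinned to 5000 UMIs with shallower cells left out.

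On simulated counts with 200 changed genes, the edgeR fits recovered 92% of genes changed by 3 on the log2 scale for mutant against wild-type Epi-derived cells at Day 14, 87% at Day 12, 59% in transition-like, 44% in mesoderm-like and 85% in amnion-like cells. For amnion-like against Epi-like cells it was 58%, and for cytotrophoblast-like against CGA-high cells 93%. For Day 12 against Day 10 it was 81% in Epi-like and 92% in trophoblast-like cells. The other contrasts of these fits were not simulated. All genes were simulated with the same spread between libraries beyond counting error, which was not fitted to the CDX genes. These shares therefore do not give the recovery of the CDX genes. The 3 CDX genes were named with all values, from each companion list the 2 called genes with the largest log2 difference were named, and for each CDX gene the 5 genes of highest r. Some genes that this rule selects are not reported here, and in endoderm-like, ExE-Mech-like and trophoblast-like cells the lists are given mainly by their counts. Clusters and marker lists described singly were chosen after their values were seen. Python 3.11.15, numpy 2.4.6, scipy 1.17.1, pandas 2.3.3 and matplotlib 3.10.9 were used. Genome coordinates and sequences were not used here.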

Additional observations from a re-analysis of the deposited data

How the results depend on the processing

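Each comparison was run under other processing, which gave 723 values in all, of which 598 kept their direction and their side of the threshold, and 29 changed sign. Most Epi-derived types held few cells, and no group had more than 2 libraries, which limits what can be called, and a comparison left with a lone library assumes that it varies like the other groups. The cause of each change below was not tested.

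Of 18 tests between types 10 were called, and 3 without a replicate block (4.53, 3.47 and 4.61 for CDX1, CDX2 and CDX4 in mesoderm-like cells). CDX2 in mesoderm-like cells missed the threshold with 20 cells or more (4.13). With cells named by their own markers the 3 mesoderm-like values were 0.93, 1.13 and 1.10, none called, and CDX2 in endoderm-like cells was -0.90. Without integration of the libraries CDX2 in ExE-Mech-like cells was 1.59, and CDX4 in mesoderm-like cells missed the threshold (4.24). Leaving out a library was not possible here, since 1 library leaves no spread. Over all genes DESeq2 called 296, 642 and 48 genes in mesoderm-like, amnion-like and transition-like cells, and edgeR 139, 256 and 6.

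Of the tests of the mutant at Day 14 none was called, but 11 without the filter on low counts (-4.17, -2.82 and -2.33 for CDX1, CDX2 and CDX4 in Epi-derived cells, in a fit that called 1246 genes instead of 74), 1 with DESeq2 (CDX4, -2.32, among 537 genes) and 4 with cells named by their own markers. A replicate block by the batch number gave 8 calls (-4.21 for CDX1 and -2.30 for CDX4 in Epi-derived cells, among 421 genes). It changed no call of a CDX gene at Day 12, between the genotype effects of the days or across days. Leaving out each library gave 1 to 8 calls, with -6.34 to -3.42 for CDX1, -3.51 to -1.52 for CDX2 and -2.71 to -1.88 for CDX4 in Epi-derived cells, and -0.19 to 1.963 for CDX1 in trophoblast-like cells. In amnion-like cells DESeq2 called 130 genes and edgeR 20.

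At Day 12 DESeq2 called 39 genes in Epi-derived cells and edgeR 1. With a replicate block edgeR called 4 there, and 6 instead of 0 in trophoblast-like cells. CDX2 and CDX4 were -0.56 and -0.29 with 20 cells or more. CDX1, CDX2 and CDX4 ranged from 0.063 to 3.81, from -0.56 to 4.02 and from -0.94 to 3.96 when a library was left out. In trophoblast-like cells CDX1 then ranged from -3.97 to 0.64 and CDX2 from 0.205 to 4.34. The difference between the days was called for the 3 genes without the filter on low counts (-5.13, -3.18 and -2.90). In trophoblast-like cells leaving out a library moved it from 0.61 to 5.21 for CDX1, from -5.36 to -1.26 for CDX2 and from -8.23 to 2.69 for CDX4.

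Across days none of 10 tests was called, but 5 without the filter (-8.19 for CDX1 and -7.96 for CDX2 in trophoblast-like cells at Day 14) and 4 with DESeq2 (-8.18 and -7.98). Over all genes DESeq2 called 198 in Epi-like and 1346 in trophoblast-like cells at Day 14, and edgeR 41 and 2. Without 1 library the Day 14 differences in trophoblast-like cells ranged from -8.46 to -7.89 for CDX1 and from -8.11 to -7.82 for CDX2. In part of these fits edgeR called each of the genes. CDX2 at Day 12 was 0.29 in cytotrophoblast-like cells alone. In Epi-like cells CDX1 was 0.10 at Day 12 and -0.053 at Day 14 with 20 cells or more, 0.23 at Day 12 with cells named by their own markers, -0.089 at Day 14 with a replicate block and -1.32 without integration, where CDX2 was -0.85. Without 1 library CDX1 ranged from -0.36 to 0.28 at Day 12 and from -1.77 to 1.64 at Day 14, and CDX2 from -0.89 to 3.87 at Day 14.

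Scaling by RLE moved the median of all genes by -0.12 between cytotrophoblast-like and CGA-high cells, with CDX2 still called (-2.27). Between trophoblast classes the call of CDX2 was lost with cells named by their own markers (-0.41), which left 0 calls. Without a replicate block CDX2 did not pass the filter on low counts and was not tested, and CDX1 was -0.76 and -3.18 in cytotrophoblast-like and extravillous-like cells, with 0 calls in these 2 tests. Leaving out a library gave 0 to 1 calls, CDX2 from -2.38 to -1.68, and CDX1 in extravillous-like cells from -0.61 to 1.09. Of the 5 genes most like CDX1, CDX2 and CDX4, 2, 3 and 3 were the same with log2(CPM + 10).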

Other observations

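Some of the companion genes were called between the trophoblast classes, each compared within its own library, where 58.4% of all genes tested were called in either direction between cytotrophoblast-like and CGA-high cells and 54.2% between extravillous-like and CGA-high cells. Of 4 tested HOX genes 3 were called higher in cytotrophoblast-like than in CGA-high cells and none lower, with HOXD9 higher by 2.31 on the log2 scale (adjusted p = 2.51e-06, edgeR). The enzymes of retinoid metabolism CYP26A1 and ALDH1A2 fell by 3.29 and 3.01, the only 2 called of 7 WNT, FGF and retinoid genes, a share under that of all genes. Of 7 BMP genes ID1 was called higher, by 1.66, and 2 lower, with ID2 at -1.89, which is 3 of 7 and also under that share. In extravillous-like cells 3 of 4 HOX genes were called higher than in CGA-high cells and none lower, with HOXD9 and HOXB6 higher by 2.89 and 2.32. Of 7 WNT, FGF and retinoid genes 3 were called lower and none higher, with ALDH1A2 at -2.61 and WNT6 at -2.52. Of 7 BMP genes 2 were called higher and 2 lower, and the largest of these differences were ID2 at -5.54 and MSX2 at -4.07. The counts of the lists are descriptions.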
